A study of Mus musculus with 10 samples.

Results

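The cytosolic ribosomal proteins are the proteins of the ribosome that works in the cytoplasm, made by 1 large family of genes whose symbols begin with Rpl (large subunit) or Rps (small subunit). Members were chosen by name alone: array probes whose gene name is Rpl or Rps followed by a number, with at most a closing a, l, x or y and a digit, together with Rpsa, Rplp0, Rplp1 and Rplp2, and without the Rps6 kinases. This gave 83 genes of the 28034 gene names on the array, measured by 139 of its 41174 probes. They fell into 43 large subunit proteins, 31 small subunit proteins, 3 proteins of the P stalk and 6 paralogs of other members (Rpl3l, Rpl7l1, Rpl22l1, Rpl39l, Rps27l and Rps4y2). The rule reads no value from the arrays.

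The study asked whether Lgr4 and Lgr5, receptors of intestinal stem cells, carry the signal of the Wnt agonist R-spondin 1 in mouse small intestine. Isolated crypts from mice in which both genes were deleted with the P450Cre driver, taken 1 day after deletion, were hybridised together with crypts from wild type control mice on the same arrays, as 2 biological replicates with a dye swap each (4 arrays). Organoids, which are crypt cultures grown as epithelium in EGF, Noggin and R-spondin, came from VillinCre Lgr4 fl/fl Lgr5 fl/fl mice (2 cultures, 1 day after deletion) and, with tamoxifen induction for 1 day, from VillinCre wild type mice (2 cultures). A further pair of organoid cultures was grown for 1 day after splitting without R-spondin (1 culture) or with it (1 culture). All organoid RNA was labelled with Cy5 and set against 1 commercial mouse reference RNA in Cy3. Whether wild type mice of the crypt samples received the agent that switches P450Cre on is not stated in the labels used here, nor whether the cultures called biological replicates came from different mice, so the p-values measure the spread between these samples.

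Ribosomal protein messages are among the most abundant in a growing cell, and their products are assembled with ribosomal RNA in the nucleolus in nearly equal numbers. Vertebrate ribosomal protein mRNAs begin with a terminal oligopyrimidine (TOP) tract, a cytosine followed by a run of pyrimidines, which lets the mTORC1 pathway set their translation through the binding protein Larp1. In intestinal crypts Wnt signalling drives the division of stem and progenitor cells and the expression of Myc, a transcription factor known to raise ribosome production.

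The members were read on bright spots. The median member lay at the 99.7th percentile of probe brightness in both deletion experiments and at the 99.6th in the R-spondin pair, and 77, 76 and 76 of the 83 lay in the top 5% in crypts, deletion organoids and the R-spondin pair. No member's spot was saturated. The scanner software marks a spot as an outlier when its pixels, or those of its local background, are uneven, and it marked 10.8% to 34.4% of the members' spots on the 10 arrays, against 2.48% to 6.94% of all spots. On the arrays of crypt replicate 1, marks on the spot's own signal made up a large part, at 25.5% and 10.8% of the members' spots. On the other 8 arrays they touched 0 to 1.91% of those spots, and nearly all marks there concerned the local background.

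Results are therefore given in 2 readings. The strict reading left out every marked spot and gave values for 60 members in crypts, 60 in deletion organoids and 36 in the R-spondin pair. The wider reading, added after the data had been seen, left out only spots whose own signal was marked and gave values for 77, 81 and 82 members. Rpl3l, whose human counterpart is a protein of heart and skeletal muscle ribosomes, was not well above background in any experiment, and Rpl39l, known from mouse testis, only in the R-spondin pair. Values are log2 ratios of the first-named condition over the second, from the brightest probe of each gene. They measure RNA relative to the rest of the sample: in bulk tissue, fewer cells of a type and less RNA per cell cannot be told apart.

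The deleted genes followed the labels. Lgr4 had a log2 change of -1.56 in deleted against wild type crypts (adjusted p = 0.0846, limma with Benjamini-Hochberg adjustment) and Lgr5 one of -1.68 (adjusted p = 0.0839). In organoids Lgr4 had a Cy5 signal of 161 and 286 in deleted cultures, against 2053 and 3165 in wild type cultures. Neither the Lgr4 change there (-3.57, adjusted p = 0.108) nor the Lgr5 change (-3.73, adjusted p = 0.104) passed the threshold of 0.05 in the same test. All 7 epithelial markers (Epcam, Cdh1, Vil1 and others) were above background on all 10 arrays.

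To show where transcription of members begins, the start sites of 9 of them are printed with 15 bases on either side of the site, from RefSeq promoters (GRCm38). Of the 83 members 62 had a promoter in the table, 10 of them more than 1. At the start site 13 of the 62 (21%) held a C with at least 4 further pyrimidines, against 3.01% of the 27025 genes in the table. Of the 13, 6 are shown first with the pyrimidine run in capitals, followed by 3 paralogs without such a run at the annotated site. An annotated start a few bases off would hide a tract, so its absence here says only that these letters are not in this place.
Rpl15 (chr14:18270972-18271001, minus strand): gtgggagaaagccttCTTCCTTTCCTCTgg
Rpl35 (chr2:39005117-39005146, minus strand): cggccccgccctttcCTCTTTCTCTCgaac
Rps10 (chr17:27635230-27635259, minus strand): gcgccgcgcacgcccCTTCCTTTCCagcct
Rps18 (chr17:33955651-33955680, minus strand): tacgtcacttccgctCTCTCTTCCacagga
Rps6 (chr4:86857353-86857382, minus strand): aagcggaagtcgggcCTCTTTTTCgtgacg
Rpl28 (chr7:4792950-4792979, plus strand): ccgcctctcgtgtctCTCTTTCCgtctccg
Rpl7l1 (chr17:46782642-46782671, minus strand): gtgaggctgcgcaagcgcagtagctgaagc
Rpl22l1 (chr3:28805493-28805522, plus strand): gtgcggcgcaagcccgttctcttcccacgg
Rps27l (chr9:66946071-66946100, plus strand): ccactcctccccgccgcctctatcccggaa

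The promoters, read from 250 bases before the start site to 50 after it, shared a second feature. The letters CCGGAAG, the core read by ETS factors such as GABPA, occurred on either strand in 26 of the 62 members (41.9%), against 9.93% of all genes in the table. AAGATGGC, read by YY1, occurred in 6 (9.68%, against 3.19%), and TATAAA in 7 (11.3%, against 15.7%). No member held both CCGGAAG and AAGATGGC. To illustrate CCGGAAG, 4 examples from genes described further on show it, or its reverse complement CTTCCGG, in capitals. They have 20 bases on either side where the window allows. A match is a description of the sequence and does not show that a factor binds there.
Rps7 (chr12:28635941-28635987, minus strand): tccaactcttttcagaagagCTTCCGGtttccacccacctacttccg
Rpl31 (chr1:39367839-39367875, plus strand): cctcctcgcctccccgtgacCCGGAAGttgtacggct
Rpl41 (chr10:128549198-128549244, minus strand): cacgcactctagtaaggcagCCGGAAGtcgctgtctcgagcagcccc
Rps18 (chr17:33955714-33955760, minus strand): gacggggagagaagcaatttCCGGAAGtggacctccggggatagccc

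The simplest reading of the family is the share of an array's signal that it takes. In crypt replicate 1 the members took 10.4% and 11.4% of the summed processed signal (all spots, marked or not) in the deleted channels, against 14.6% and 13.5% in the wild type channels of the same arrays. For replicate 2 these shares were 6.68% and 7.23% with deleted RNA, against 10.3% and 9.27% with wild type RNA. The deleted channel was the lower one on each of the 4 arrays, in both dye orientations. An exact sign permutation over 2 biological replicates cannot give a two-sided p below 0.5, so these shares are given as a description.

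In organoids the difference was small for the deletion and larger for R-spondin. The members took 9.62% and 10.4% of the Cy5 signal in deleted cultures, against 10.0% and 10.96% in wild type cultures, and the ranges of the groups overlapped. Within each slide the deleted culture had the lower share. The reference RNA on the same arrays also differed, in the opposite direction. It gave 15.5% and 16.3% on the arrays of deleted cultures, against 14.3% and 15.8% on those of wild type cultures. Without R-spondin the members took 8.83%, against 11.1% with R-spondin. The reference RNA on those same 2 arrays gave 12.5% on the array without R-spondin and 12.1% on the other, a smaller difference in the opposite direction.

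**Figure D1:**
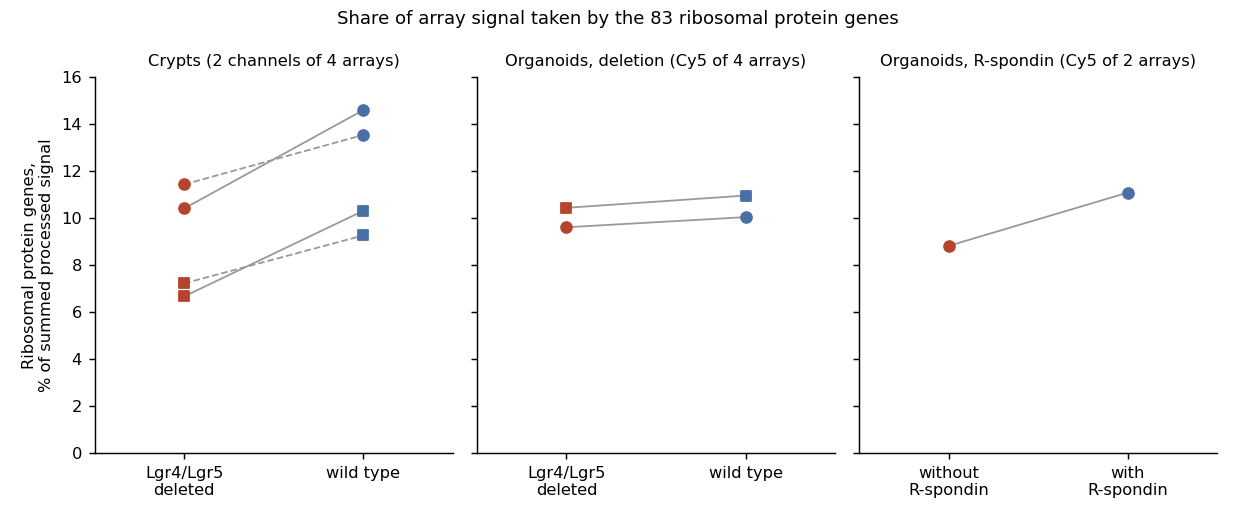
Share of the summed processed signal of an array channel (%, y axis from 0) taken by the 83 ribosomal protein genes, with the deleted or R-spondin-free channel left of its comparison. Circles are replicate 1, squares replicate 2, lines join channels of 1 array in crypts (solid with deleted in Cy3, dashed with deleted in Cy5) and arrays of 1 slide in organoids; every crypt line is lower on the deleted side, with 10.4% against 14.6% on the first array.

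In crypts the ribosomal protein genes were on the whole lower after deletion of Lgr4 and Lgr5, while the gene set as a whole was centred on 0. The median member had a log2 change of -0.61, the median of the 12088 genes tested was -0.02, and the members ranged from -1.45 to 0.17. Of the 60 members with a value, 57 were below 0, against 52.4% of all genes. No single member passed the limma test after Benjamini-Hochberg adjustment over all genes (smallest adjusted p = 0.107, Rps7), which called 0.0579% of all genes, 1 lower (0.00827%) and 6 higher. With a threshold of 0.05 on the unadjusted p, 29 of the 60 members were on the low side (7.35% of all genes) and 0 on the high side. Median centring in place of loess left 37 of the 60 below 0, against 34.9% of all genes. At the same unadjusted threshold of limma, 4 of them were then on the low side and 2 on the high side. With the scanner's processed signals 3 of the 60 passed as lower (2.72% of genes), and with the 4 arrays fitted singly and the replicate as a random block 7 did (2.08% of genes). In the wider reading the arrays with deleted RNA in Cy3 alone gave 20 of 59 (1.16% of genes), and those with deleted RNA in Cy5 alone gave 0 of 75 (0.32% of genes), where the unadjusted p was under 0.05 for 9 members on the low side and 1 on the high side.

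Both replicates were below 0 for 48 of the 60 members, against 33% of all genes. With the wider reading the median was -0.59, 74 of 77 members were below 0 (52.3% of all genes), and both replicates were below 0 for 62 of the 77 (33.1% of all genes). Both subunits took part alike in the strict reading: 26 of 28 large subunit genes and 26 of 26 small subunit genes were below 0, each set with a median of -0.61. The replicate medians were -0.51 in replicate 1 and -0.82 in replicate 2 in the strict reading.

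The 4 arrays did not measure the same size of change. The member median of the wider reading was -1.07 and -1.02 on the arrays with deleted RNA in Cy3 (replicates 1 and 2), but -0.10 and -0.49 on those with deleted RNA in Cy5. The direction of the deleted-in-Cy5 array of replicate 1 turned with the processing: its median was 0.57 with marked spots kept, where 16 of 83 members were below 0, and -0.0051 without background subtraction, where 32 of 62 were. Of the 57 members with a value on all 4 arrays, 30 were below 0 on every one, against 17.3% of all genes. Across the members the swapped arrays of replicate 2 gave like values (r = 0.79 over 41 members of the strict reading) and those of replicate 1 did not (r = -0.43 over 42), a description of genes that share arrays and dyes. With the scanner's own processed signals and no loess, the 4 strict medians lay closer together, at -0.28, -0.44, -0.60 and -0.61, where those of all genes were 0.12, -0.18, 0.22 and 0.04. The member median was thus the lower one on each array. A gene whose value rests on 1 dye orientation is therefore less certain: in the strict reading 14 members had values on 2 arrays, 26 on 3 and 20 on all 4.

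**Figure D2:**
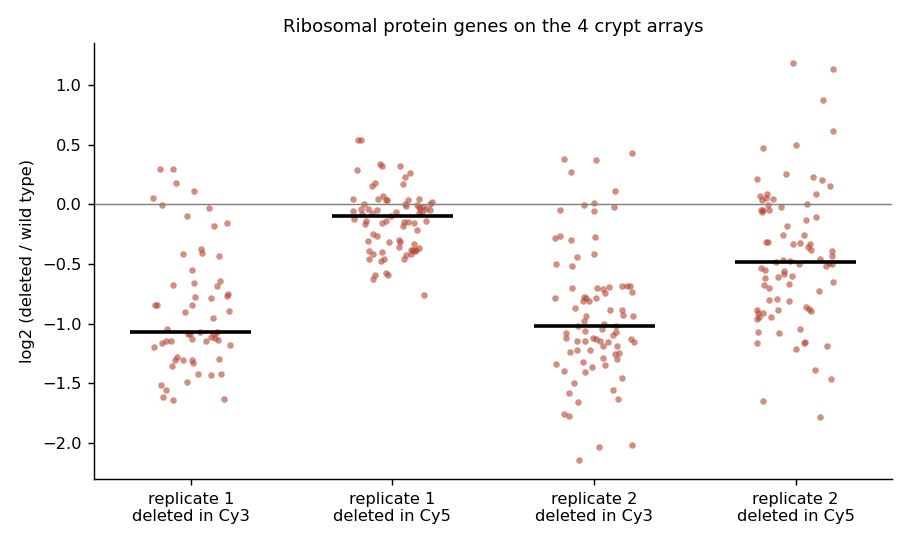
Log2 ratio of deleted over wild type crypts (y axis) of each ribosomal protein gene on each of the 4 arrays in the wider reading, with the median as a black bar. The medians are -1.07 and -1.02 where deleted RNA carried Cy3 and -0.10 and -0.49 where it carried Cy5.

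Among single genes, Rps20, a protein of the head of the small subunit, had the lowest value (-1.45 ± 0.34, adjusted p = 0.208 by limma with Benjamini-Hochberg adjustment). Values after ± are limma's moderated SE, which draws on the spread of all genes tested and not on the replicates of 1 gene alone. The log2 ratios of Rps20 were -1.33 and -0.30 on the arrays of replicate 1 and -2.08 on the 1 unmarked array of replicate 2. All were below 0, and the wider reading, which adds -1.16 on the remaining array, gave -1.20.

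Rps7, a small subunit protein that also binds the p53 regulator Mdm2, had -1.45 on the 1 unmarked array of replicate 1 and -1.82 and -0.86 on those of replicate 2 (log2 change -1.40 ± 0.22, adjusted p = 0.107, same test). The array left out, with deleted RNA in Cy5, gave 0.32, and with it the change was -0.94. Rps19, the gene most often mutated in the human blood disorder Diamond-Blackfan anaemia, had all 4 arrays: -1.16 and 0.05 in replicate 1, -1.78 and -1.63 in replicate 2, a change of -1.13 ± 0.32 (adjusted p = 0.251). Here replicate 2 was low in both dyes, and replicate 1 in Cy3 only.

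Rps28 had a strict value of -1.12 and a wider value of -0.85, and Rpl32, a large subunit protein, -1.12 and -0.55. For Rpl32 the strict value came from the arrays with deleted RNA in Cy3 alone (-1.39 and -0.84), since both others were marked. Those others stood near 0 in the wider reading (-0.02 and -0.05).

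The P stalk, the flexible arm of the large subunit that recruits translation factors, is built on Rplp0 with Rplp1 and Rplp2. In crypts Rplp1 had -1.43, the second lowest strict value (adjusted p = 0.126), also from the deleted-in-Cy3 arrays alone (-1.66 and -1.21). With the other arrays, at 0.34 and -0.26, its change was -0.68. Rplp0 had -0.84 in the strict reading and -0.55 in the wider one, and Rplp2 had -0.61 in the wider one. The 3 genes thus lay in the wider reading between -0.68 and -0.55, close to the family median.

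Rpl5 and Rpl11 form a particle with 5S ribosomal RNA, which can hold Mdm2 when ribosome assembly fails. They differed from each other in crypts. Rpl5 had -0.94 in the strict and -1.16 in the wider reading, and Rpl11 had 0.03 and -0.17. The probes of Rpl11 differed: in the wider reading the brighter probe gave -0.17 and the dimmer one -1.37. The brighter probe maps to a stretch of mm9 longer than its 60 bases, so that it is split in the genome. The dimmer one lies inside that stretch, in bases that the brighter probe does not hold, so they need not read the same RNA. Both are shown 5′ to 3′. In crypts 35 members had several probes that were above background and had values in both replicates. None of them had such probes on opposite sides of 0. The median span between these probes of 1 gene was 0.25, with the widest at 1.31 for Rps24, a small subunit protein chosen here for that span. Probes not above background were left out, among them dimmer probes of Rps19 (0.01) and Rps4x (0.06), whose brighter probes were below 0.
Rpl11, brighter probe (chr4:135605885-135606207): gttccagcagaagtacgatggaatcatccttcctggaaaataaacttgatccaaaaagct
Rpl11, dimmer probe (chr4:135605957-135606016): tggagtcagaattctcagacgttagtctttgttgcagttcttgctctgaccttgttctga

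Of the paralogs, Rpl7l1, a relative of Rpl7 found in precursors of the large subunit, was the only member with both crypt replicates above 0 in the strict reading. Its 4 arrays gave 0.29, 0.03, 0.26 and 0.07 (change 0.17 ± 0.22, adjusted p = 0.761), a difference smaller than its moderated SE. Its partner Rpl7 had -0.27 in the wider reading. Rpl22l1, the counterpart of Rpl22, had -0.68 and -0.31 in replicate 1 and -1.68 and -1.77 in replicate 2 (change -1.11 ± 0.33, adjusted p = 0.268), low on each array. Rpl22 itself had -0.57 in the wider reading. Rps27l, a p53 target in human cells, had -0.53 and its partner Rps27 -0.95. Rps4y2 had -0.10 and Rps4x, which encodes the main form of that protein, -0.43. Rpl10, another large subunit protein, had -0.46, and Rpl39 -0.66.

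Some members are known for more than their place in the ribosome. Rps27a, which is made as a fusion with ubiquitin, had -0.61, and Rps6, the target of the S6 kinases, had -0.33. Rpsa, also known as the laminin receptor, had crypt values on the arrays of replicate 2 alone, -1.16 and -1.19. A dimmer probe of Rpsa had values in both replicates in the wider reading, -0.24 and -0.65. Rps27a and Rps6 did not pass the limma test, and Rpsa was not tested because its brightest probe had no value in replicate 1.

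Markers of other cells moved in the same samples. All 12 markers of T cells and other immune cells (Ptprc, Cd3e, Gzma, Gzmb, Ccl5 and others) were above 0 in deleted against wild type crypts, with a median log2 change of 1.78, 11 of them at an unadjusted p under 0.05 and 0 after limma's Benjamini-Hochberg adjustment. Their summed processed signal was 41811 and 30321 in the deleted channels of replicate 1 and 140136 and 111285 in those of replicate 2, against 11489, 8554, 24017 and 18437 in the wild type channels of the same arrays. All 4 stem cell markers were lower (median -1.18), all 4 Paneth cell markers above background were lower (median -0.90) and all 4 enterocyte markers above background were higher (median 0.63). Epithelial markers were centred near 0 (4 of 7 below, median -0.06), and the 4 endothelial markers had no value above background. The 4 markers of stroma and muscle with a value were lower (median -0.93, 3 at an unadjusted p under 0.05), and the 2 of red cells were higher (median 0.99), with replicate medians of 1.90 and 0.09. The part of these cell types in the ribosomal protein values was not tested.

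Brightness is the other property that sets members apart. In crypts, other genes with probes of log2 raw brightness between 15 and 16 and between 16 and 17 had medians of -0.07 and -0.07 in the wider reading, against -0.56 and -0.61 for members of like brightness. Above 17, however, the 43 other genes had a median of -0.38, against -0.60 for the 26 members. In that bin a lower value was thus common to very bright genes of crypts, and 74.4% of the others were below 0. In the R-spondin pair the other genes went the other way at high brightness, with medians from 0.17 to 0.23 above a log2 brightness of 14, against -0.18 to -0.50 for the members.

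**Figure D3:**
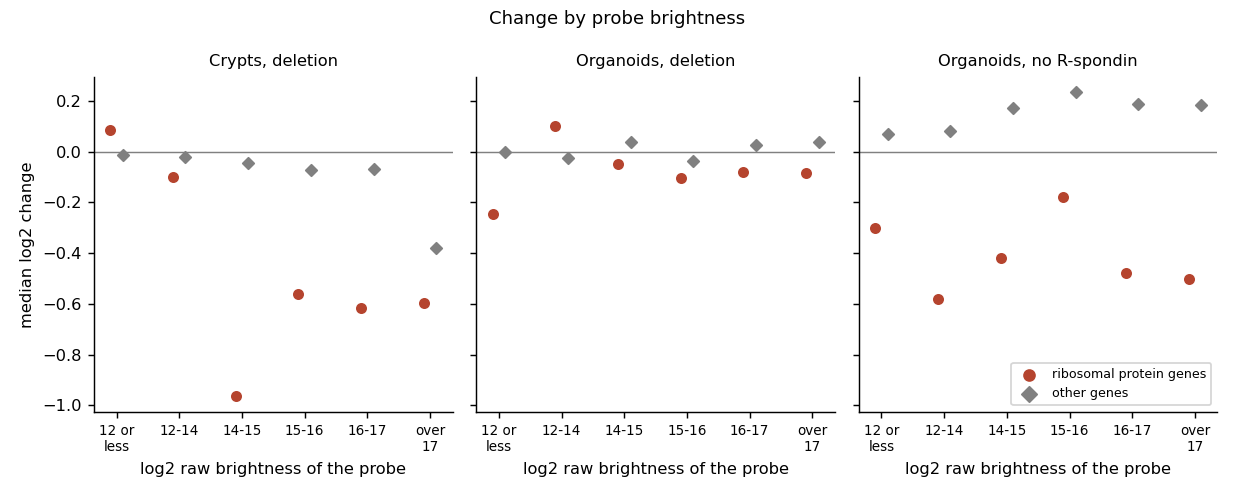
Median log2 change in the wider reading (y axis) by log2 raw brightness of the probe (x axis), for ribosomal protein genes (circles) and all other genes with a value (diamonds). In crypts the 2 sets come closest among bright probes in the bin over 17 (-0.60 and -0.38), in organoids after deletion the members' medians lie between -0.25 and 0.10 and those of other genes between -0.04 and 0.04, and without R-spondin they are on opposite sides of 0 in every bin.

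In organoids the deletion left the ribosomal protein genes near 0, in contrast with the stem cell markers of the same cultures (4 of 4 lower, median -2.43). The members' median log2 change was 0.10 in the strict reading, with 13 of 60 below 0 (47.7% of all genes), and -0.08 in the wider reading, with 61 of 81 below 0 (50.7% of all genes). The sign of the median thus turned with the treatment of marked spots. A member differed by a median of 0.20 in size between the deleted cultures and of 0.23 between the wild type cultures. The signed medians between cultures of 1 group were -0.04 (deleted) and 0.02 (wild type) in the strict reading and -0.12 in either group in the wider one. No member passed limma with Benjamini-Hochberg adjustment (smallest adjusted p = 0.426), which called 0.0363% of genes, and at an unadjusted p under 0.05 1 member was higher (3.45% of all genes) and 0 lower (4.26%).

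The 2 slides, each with 1 deleted and 1 wild type culture, gave member medians of 0.04 and 0.14 in the strict reading and of -0.12 and -0.09 in the wider one. Both slides were above 0 for 15 of the 39 members with a value on all 4 arrays (34% of genes). The wider reading had both below 0 for 39 of 81 (33% of genes) and above 0 for 12 (31.3%). The first share is near that of genes in general, the second above it and the third below it.

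The member with the highest value was the paralog Rps4y2, named so in the files and Rps4l in RefSeq, where it lies on mouse chromosome 6. Its Cy5 signal was 10026 and 8725 in deleted organoids, against 5329 and 3333 in wild type organoids, and the groups did not overlap. The log2 change was 1.15 ± 0.29 (adjusted p = 0.426, limma with Benjamini-Hochberg adjustment), and 0.91 and 1.39 within the 2 slides. With the slide as a block it was the 1 member of 39 to pass as higher (1.04% of genes), at an adjusted p of 0.0321. It had -0.10 in crypts and -0.13 without R-spondin. Its single probe has this sequence.
Rps4y2 probe (mm9 chr6:148304018-148304077): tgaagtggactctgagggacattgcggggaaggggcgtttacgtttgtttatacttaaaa

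Other large rises with both slides above 0 included Rpl41, the shortest ribosomal protein, at 0.55 and Rpl18 at 0.44. Rpl29 had 0.39 and Rpl13a 0.25. The signals of deleted and wild type cultures overlapped for Rpl29 and Rpl13a. Rpl41 had 203683 and 199464 in deleted cultures, against 186730 and 101414 in wild type cultures, so its difference came mostly from 1 low wild type culture. Rpl18 had 39138 and 58334 in deleted cultures, against 36792 and 33638 in wild type cultures, with no overlap (adjusted p = 0.793).

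On the low side the largest differences belonged to Rpl14 and to paralogs. Rpl14, a large subunit protein, had signals of 3112 and 3882 in deleted organoids, against 4775 and 5472 in wild type organoids, without overlap (log2 change -0.56 ± 0.23, adjusted p = 0.667). Rpl22l1 had 36271 and 30596 in deleted organoids, against 38216 and 52947 in wild type organoids (-0.43 ± 0.26, adjusted p = 0.784). Rpl7l1 had 1801 and 1942 in deleted organoids, against 2172 and 2612 in wild type organoids (-0.35 ± 0.22, adjusted p = 0.814). For all 3 each deleted culture was below each wild type culture, but they were picked as the largest falls. How many of all genes separate in this way was not counted. The lack of overlap here, and for Rps4y2 and Rpl18, is therefore a description only. Among members with both slides below 0, Rpl31, Rpl21 and Rpl10a followed with -0.23, -0.17 and -0.15. Rps26, which lacked a full set of cultures and was not ranked, had -0.25.

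The P stalk had no strict organoid value, because marks left at most 1 culture of each group for each of its genes. In the wider reading Rplp0, Rplp1 and Rplp2 had -0.03, -0.08 and 0.03. Of the genes lowest in crypts, Rps20 had 0.11 and Rps19 0.22 in the strict reading. Elsewhere in the family Rps27a had 0.21, Rps6 0.03 and Rps27l -0.15.

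Immune genes were scarce in the organoids. Of the 12 immune markers, 7 (among them Ptprc, Cd3d, Cd8a and Gzmb) were above background on none of the 4 deletion arrays, and the 5 with a value had a median change of -0.03. Paneth markers were lower there too (4 of 4, median -0.78) and enterocyte markers higher (5 of 5, median 0.75).

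Without R-spondin for 1 day every ribosomal protein gene with a value was lower than in the culture with R-spondin in both readings. Other processing left some above 0: 11 of 82 in the series matrix, 2 of 36 with median centring, 2 of 36 with processed signals and 4 of 56 with the mean of all probes. There is 1 culture on either side, so these values have no replicate check and no test. In the strict reading 36 of 36 members were below 0, against 42.3% of the 16615 genes with a value, with a median of -0.49 where the median gene stood at 0.07. In the wider reading 82 of 82 were below 0 (42.4% of all genes) with a median of -0.47. The shift was shared and modest: 0 strict members reached a log2 change of -1 or lower, against 6.49% of genes, and in the wider reading 1 did, Rps20 at -1.04 (6.49% of genes).

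The 5 lowest strict members were Rplp1 at -0.91, Rps15a at -0.88, Rps7 at -0.85, Rps12 at -0.79 and Rps18 at -0.77. All but Rplp1 belong to the small subunit. As log2 over the reference RNA, Rplp1 had -0.72 without R-spondin, against 0.20 with it, and Rps15a had -0.75 without R-spondin, against 0.12 with it. Rps12 had 0.32 without R-spondin and 1.11 with R-spondin. The smallest difference was that of Rps27l, at -0.03, and there was no member above 0.

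The class medians were -0.46 for 16 large subunit genes, -0.55 for 14 small subunit genes, -0.73 for 2 P stalk genes and -0.24 for 4 paralogs. In the P stalk Rplp2 had -0.56 next to the -0.91 of Rplp1, and Rplp0 had -0.55 in the wider reading. Rpl11 had -0.66, and Rpl5 -0.55 in the wider reading, so that the pair lay closer together than in crypts. Rpl7l1 had -0.39, Rps6 -0.36, Rpsa -0.56 and Rps27 -0.59. Stem cell markers were lower by far more in the same culture (4 of 4, median -3.17, with Lgr5 at -5.08). Paneth markers were lower too (4 of 4, median -1.03), the 3 enterocyte markers with a value were higher (median 0.23), and the immune markers with a value had a median of 0.12.

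**Figure D4:**
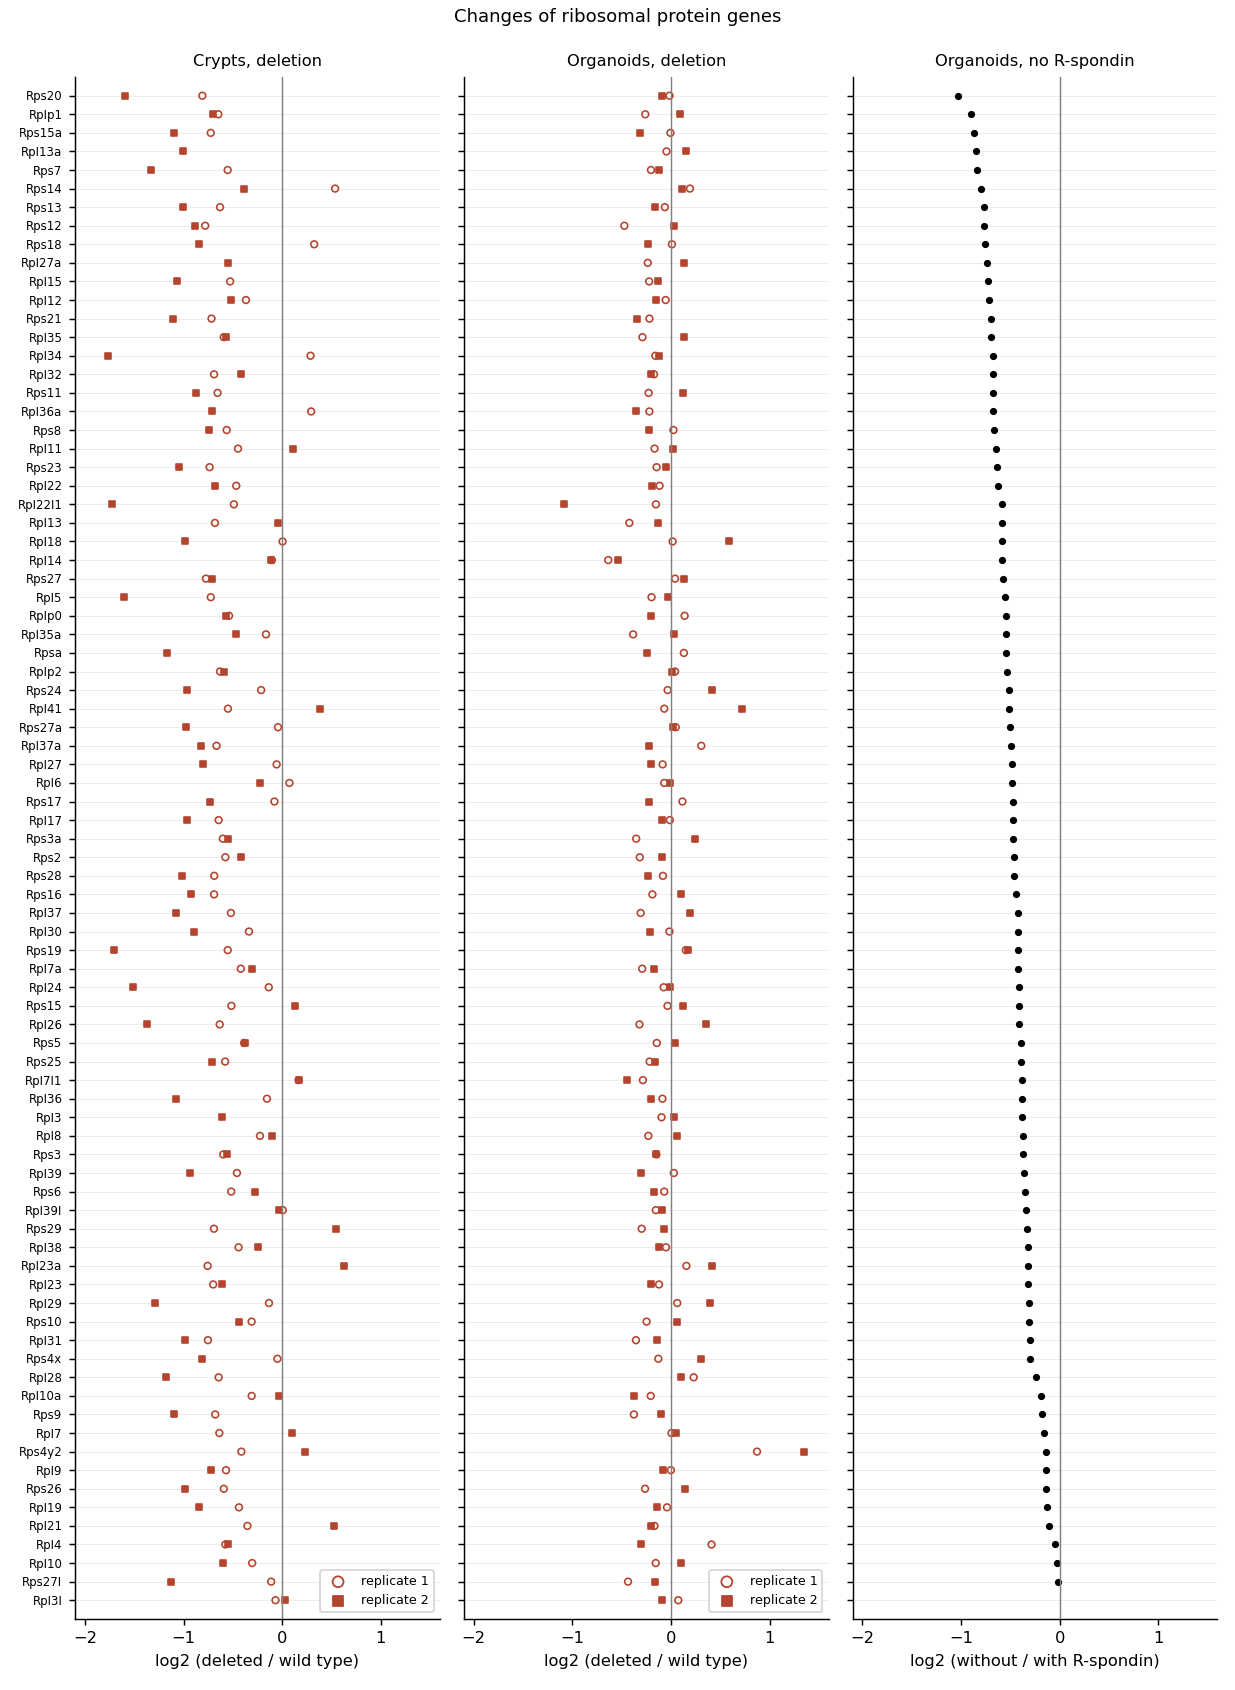
Log2 change of 82 of the 83 ribosomal protein genes (rows, ordered by the R-spondin value) in the wider reading, deleted over wild type in crypts and organoids (open circles replicate or slide 1, filled squares 2) and without over with R-spondin in the third panel. In crypts most points lie left of 0 with a wide scatter between replicates, in deletion organoids they straddle 0 apart from Rps4y2, and without R-spondin every point of this reading lies left of 0.

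Other genes of protein synthesis were counted beside the members, from lists fixed by function. Of 14 other mRNAs with a TOP tract that had a value in crypts (elongation and initiation factors such as Eef1a1 and Eif4b, Pabpc1, Tpt1 and others), 14 were below 0 (52.4% of genes), with a median of -0.44. In deletion organoids 7 of 16 were below 0 (47.7% of genes, median 0.03), and without R-spondin 7 of 9 (42.3% of genes, median -0.50). These mRNAs were thus low in crypts and without R-spondin and near 0 in deletion organoids, as the members were.

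Genes of ribosome biogenesis, which act in the nucleolus on ribosomal RNA and assembly (Fbl, Ncl, Nop56, Polr1b and others), gave another order. In crypts 10 of 19 were below 0 (52.4% of genes) and the median was -0.01. In deletion organoids 17 of 20 were below 0 (47.7% of genes) with a median of -0.70, 8 of them at an unadjusted p under 0.05 (4.26% of genes). Without R-spondin 17 of 17 were below 0 (42.3% of genes) with a median of -1.35, 13 of them at -1 or lower (6.49% of genes). The list therefore stood lower than the ribosomal proteins in both organoid experiments and higher in crypts. The proteins of the mitochondrial ribosome, a separate machine, had medians nearer to 0: -0.04 in crypts (39 of 68 below 0, against 52.4% of genes), -0.08 in deletion organoids (49 of 74, against 47.7%) and -0.18 without R-spondin (47 of 64, against 42.3%), where the median gene stood at 0.07. No gene of the 3 lists passed limma's test with Benjamini-Hochberg adjustment in either deletion experiment.

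The start-site tract did not separate the members. In the wider reading the 13 members with it had medians of -0.58 in crypts, -0.11 in deletion organoids and -0.57 without R-spondin, and those with a promoter but without it had -0.63, -0.10 and -0.47. Members with CCGGAAG had -0.62, -0.09 and -0.47, and those without it -0.58, -0.11 and -0.49. These differences are small beside the range of the members.

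**Figure D5:**
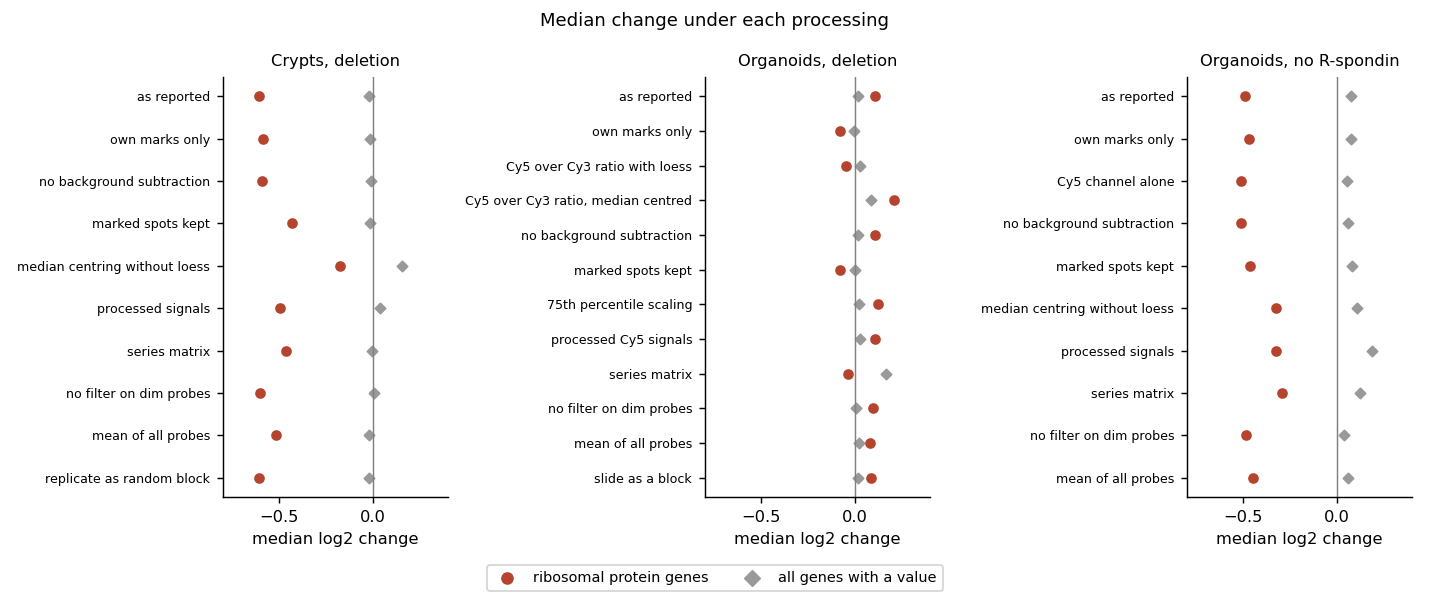
Median log2 change of the ribosomal protein genes (circles) and of all genes with a value (diamonds) under each way of processing (rows), with the strict reading at the top. In crypts and without R-spondin the circles stay left of 0 and of the diamonds under every processing shown, and in deletion organoids they fall on either side of 0.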

How the data were processed

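RNA was measured on 10 Agilent 2-colour mouse arrays. The deposited scanner files hold spot intensity in both channels, made with Agilent Feature Extraction 10.5.1.1 per the file headers (8.5.1.1 per the submitters' processing notes), and processed signals. The deposited series matrix holds a log10 ratio per probe, whose processing by the authors is not given in the sources used here. Array numbers limit precision.

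Signals were background-corrected with limma 3.58.1 in R 4.3.3 (normexp, offset 50) and loess-normalised within arrays; ratios of dye-swapped arrays were given 1 direction (deleted over wild type), and their mean was the value of a replicate. For deletion organoids Cy5 alone was quantile-normalised, because Cy3 was above background for 3.66% to 4.26% of gene spots there. Probes well above background in every array of a group were kept, the brightest per gene. Names came from the organoid files' design annotation, updated through RefSeq; all 83 members matched. Tests were limma's moderated test, two-sided, with Benjamini-Hochberg adjustment over all genes and a threshold of 0.05; scripts were tested on simulated data. Named genes were those passing a test, the 6 largest rises and falls in each deletion experiment with replicates on 1 side, the 5 without R-spondin, the P stalk, Rpl5, Rpl11, paralogs and partners, Rps27a, Rpsa and Rps6; 1 such member is counted but not reported by name here. Motifs were searched in RefSeq promoters of GRCm38. Members and lists were chosen with earlier results of these data known. Each slide holds 1 replicate of both deletion groups, and the slide block is an alternative, as are other background, normalisation, filter and probe rules.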

Additional observations from a re-analysis of the deposited data

Results flagged for a closer look

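For 6 members both replicates of the crypt deletion lay on 1 side of 0 and both slides of the organoid deletion on the other, in the strict reading; the difference between crypts and organoids was not tested. All but Rpl7l1 were lower in deleted crypts and higher in deleted organoids. Rps20 had a log2 change of -1.45 in crypts and 0.11 in organoids, Rps19 had -1.13 and 0.22, and Rpl29 had -0.72 and 0.39. Rps27a had -0.61 and 0.21, and Rps6 had -0.33 and 0.03. Rpl7l1 went the other way, with 0.17 in crypts and -0.35 in organoids. In the wider reading the organoid values of Rps20 (-0.05) and Rps6 (-0.12) were below 0, so that these 2 no longer differed in sign.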

How the results depend on the processing

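In crypts the member median stayed below 0 under every alternative run. It was -0.18 with median centring in place of loess, which placed the median gene at 0.15. With that centring 37 of 60 members were below 0 and 23 above, so the near-uniform direction of the members depended on the loess step. In the wider reading the member median was -0.28 without the arrays with deleted RNA in Cy3 and -0.97 without those with deleted RNA in Cy5. In the strict one it ranged from -0.84 to -0.52 when 1 replicate was left out. Members called lower at an adjusted p under 0.05 (limma, Benjamini-Hochberg) numbered 0 as reported, 3 with processed signals, 7 of 60 with a random replicate block over the 4 arrays, 20 of 59 with the deleted-in-Cy3 arrays alone and 0 of 75 with the deleted-in-Cy5 arrays alone. Genes called lower and higher varied as widely: 1 and 6 as reported, 12 and 41 without background subtraction, 54 and 282 with median centring, 329 and 448 with processed signals, 155 and 290 in the series matrix, and 252 and 361 with the replicate block, which treats the arrays of a dye swap as separate. The cause was not tested.

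In organoids the deletion median changed sign with the processing: -0.084 in the wider reading and with marked spots kept, -0.051 for the Cy5 over Cy3 ratio with loess, -0.037 in the series matrix, where the median gene stood at 0.16, and 0.21 for the ratio with median centring. Leaving out 1 culture gave 0.054 to 0.13. With the slide as a block, which pairs the replicates, 1 member was called higher (Rps4y2), among 190 genes lower and 135 higher, against 1 and 4 without it. Without R-spondin the median was -0.32 with median centring, -0.33 with processed signals and -0.30 in the series matrix, which left 2, 2 and 11 members above 0, and 1 member was at -1 or lower in the wider reading, with marked spots kept and with the mean of all probes. No paired analysis was possible there because each condition has 1 culture.

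Some named genes changed sign, and the cause was not tested. In crypts Rplp1 had 0.039 without the deleted-in-Cy3 arrays. With median centring Rplp0 had 0.094, Rps27l 0.15, Rps4y2 0.29 and Rpl10 0.044. Rpl11 had -0.17 in the wider reading and among members with all 4 arrays, -0.065 with the replicate block and -0.71 without the deleted-in-Cy5 arrays. In organoids the series matrix gave 0.53 for Rpl31, 0.043 for Rpl21, -0.29 for Rps27a, -0.12 for Rps6 and -0.033 for Rps20. The Cy5 over Cy3 ratio with loess gave 0.54 for Rpl21, -0.25 for Rps27a, -0.15 for Rps6 and -0.079 for Rps20, and with median centring 0.20 for Rpl21, 0.090 for Rpl10a and 0.096 for Rps27l. Processed signals gave -0.038 for Rps27a and -0.014 for Rps6. The wider reading, and keeping marked spots, gave -0.12 for Rps6 and -0.054 for Rps20. Leaving out 1 culture gave -0.57 to 0.12 for Rpl31, -0.42 to 0.13 for Rps27l, -0.075 to 0.86 for Rpl29, -0.0048 to 0.51 for Rpl13a, -0.0056 to 0.43 for Rps27a, -0.12 to 0.19 for Rps6 and -0.29 to 0.73 for Rps19.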
